A study of Homo sapiens with 13 samples.

Results

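Artificial enhancers that combined MYC motifs with PU1 motifs were followed through 3 STARR-seq libraries. They were chosen by name alone: a construct was taken when its motif list held MYC and PU1 and no other motif. This gave 12 of 542 constructs, namely the arrays MYC_PU1, PU1_MYC, MYC_PU1_MYC and PU1_MYC_PU1, each in 3 flanking contexts numbered 1 to 3. The 10 bp library held the 6 arrays of 2 motifs among its 442 constructs. The 5 bp library held all 12 among 542 constructs, and the integrated library held all 12 among 530. The array name gives the motifs from left to right, and which end lies nearer to the promoter is not given in the sources used here.

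STARR-seq places a candidate enhancer inside the transcribed part of a reporter, so that an active enhancer makes more of the transcript that carries it. Every construct was tagged with many random barcodes, and reads were counted per barcode. All samples came from MEC1, an established chronic lymphocytic leukaemia line, with the genotype given as WT and no treatment. In the episomal assay, mRNA was taken 24 h after transfection: there were 2 mRNA samples and 1 plasmid DNA sample for arrays with 10 bp between motifs, and 2 mRNA samples and 1 plasmid DNA sample for arrays with 5 bp between motifs. In the integrated assay the 5 bp library was exchanged by CRE recombinase into a GFP landing pad, in cells grown with blasticidin before transfection. GFP-negative cells were sorted after 10 to 12 days and grown for 6 to 7 more days, and this gave 3 mRNA samples, 3 genomic DNA samples and 1 plasmid DNA sample. The landing pad cells are described only by the pad and the recombinase, so whether they are 1 clone is not given here.

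MYC is a basic helix-loop-helix protein that binds E-box sequences as a dimer with MAX and drives growth and metabolic genes. PU1 (gene SPI1) is an ETS family factor that binds purine-rich sequences with a GGAA core and is required for B cell and myeloid development. In B cells PU1 often binds beside other factors at composite sites. The files identify each construct by name and by random barcode, so the letters of these arrays are not shown here.

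The activity of a construct was taken in each mRNA replicate as the log2 ratio of its share of the mRNA reads to its share of the plasmid DNA reads (integrated: of its summed mRNA RPM to its summed RPM in the genomic DNA sample of the same number). An activity of 0 means an equal share of the mRNA and of the input, not equal amounts. Each context has a construct called rd, whose name lists no motif. The MYC and PU1 arrays held 261 to 690 barcodes and 5824 to 10140 plasmid reads each in the 10 bp library, and 301 to 1022 barcodes and 4227 to 13275 plasmid reads each in the 5 bp library. No single barcode gave more than 3.84% (10 bp) or 5.37% (5 bp) of the mRNA reads of any of them. The episomal tables list only barcodes with at least 1 read in every library. Between 11.2% and 26.8% of the arrays' barcodes at 10 bp, and between 11.2% and 40.9% at 5 bp, had exactly 1 mRNA read, so the activity of the weakest arrays may be overstated. In the integrated library each array had only 20 to 69 barcodes, and 14 of their 423 barcodes had mRNA in all 3 replicates.

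With 10 bp spacers all 6 mixed arrays had a smaller share of the mRNA than of the input. Those of context 2 were the lowest in both orders. The most active was PU1_MYC in context 3, with activities of -0.81 and -0.88 in the 2 mRNA replicates. MYC_PU1 in context 3 had -1.04 and -1.11. In context 1, MYC_PU1 had -1.35 and -1.39 and PU1_MYC had -1.49 and -1.54. The lowest values were those of context 2, with -2.24 and -2.36 for MYC_PU1 and -2.13 and -2.04 for PU1_MYC. Both replicates put the contexts in this order for both arrays, and no replicate values overlapped between contexts. The rd constructs were higher in contexts 1 and 2, with -0.62 and -0.74 in context 1 and -0.27 and -0.35 in context 2, and had -0.82 and -0.93 in context 3. The median over the 6 arrays was -1.44, and over all 442 constructs -0.67.

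At 5 bp the 3 most active arrays had 2 motifs (PU1_MYC in contexts 1 and 2, and MYC_PU1 in context 1) and the 3 least active had 3 motifs. PU1_MYC had activities of -0.65 and -0.70 in context 1, -0.74 and -0.78 in context 2, and -1.13 and -1.17 in context 3. MYC_PU1 had -0.93 and -1.07 in context 1, -1.25 and -1.32 in context 2, and -1.59 and -1.60 in context 3. Within each context both replicates of PU1_MYC lay above both of MYC_PU1. The 3 least active were MYC_PU1_MYC in context 2 (-2.15 and -2.18), PU1_MYC_PU1 in context 1 (-2.05 and -2.05) and PU1_MYC_PU1 in context 2 (-1.77 and -1.97). The remaining 3 arrays, all of 3 motifs, had mean activities between -1.59 and -1.42. The rd constructs had -1.27 and -1.23 in context 1, -1.06 and -1.17 in context 2, and -1.58 and -1.51 in context 3. The median over the 12 arrays was -1.43, and over all 542 constructs -0.77.

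Motif order was read from the difference MYC_PU1 minus PU1_MYC, the same 2 motifs in the same context. Differences of this kind were tested with limma on the 2 mRNA replicates, with Benjamini-Hochberg adjusted p under 0.05 over all such pairs of the 8 motifs. These p-values cover the spread between mRNA replicates but not the counting error of the single plasmid DNA library, and most pairs of any motifs pass them. With 10 bp spacers the difference was 0.15 ± 0.02 (SE) in context 1 (adjusted p = 0.00985), -0.22 ± 0.07 in context 2 (adjusted p = 0.0895) and -0.23 ± 0.02 in context 3 (adjusted p = 0.0053). So at 10 bp 1 of 3 contexts passed with the MYC-first array higher and 1 with it lower, where 73.8% of all 84 order pairs passed, 36.9% as higher and 36.9% as lower. With 5 bp spacers the MYC-first array was lower in all 3 contexts, with differences of -0.33, -0.52 and -0.45 (each SE 0.06, and the largest adjusted p 3.51e-07), where 82.1% of the 84 order pairs passed and 48.8% passed as lower.

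The order differences were then compared between the libraries, the 2 replicates at 10 bp against the 2 at 5 bp in limma. The difference MYC_PU1 minus PU1_MYC was higher at 10 bp than at 5 bp in all 3 contexts, by 0.48 ± 0.05 in context 1 (adjusted p = 8.09e-05), 0.30 ± 0.07 in context 2 (adjusted p = 0.00654) and 0.22 ± 0.04 in context 3 (adjusted p = 0.00314). Of all 84 order pairs 85.7% passed this test and 52.4% passed as higher. Among the 28 pairs of motifs, the mean order difference of MYC and PU1 over the contexts ranked 24th by size at 10 bp (-0.10) and 5th at 5 bp (-0.43). At 5 bp the order difference had 1 sign in all 3 contexts for 13 of the 28 pairs, MYC and PU1 among them, and at 10 bp for 11, without them.

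The mixed arrays were next set against arrays of only MYC or only PU1 motifs with the same number of motifs and the same context. The activities of these single-factor arrays are given by library, and no test of them between libraries is given here. At 10 bp MYC_MYC had mean activities of -1.19, -1.73 and -1.38 in contexts 1 to 3, and PU1_PU1 had -2.04, -1.93 and -1.23. At 5 bp MYC_MYC had -0.14, -1.37 and -0.93 and PU1_PU1 had -1.52, -1.67 and -1.48. The arrays of 3 at 5 bp had -0.70, -1.33 and -1.36 for MYC_MYC_MYC and -2.04, -2.20 and -1.70 for PU1_PU1_PU1.

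With 10 bp spacers the mixed arrays were above PU1_PU1 in contexts 1 and 3 and below it in context 2. Against PU1_PU1, 4 of 6 passed as higher and 2 as lower, and against MYC_MYC, 2 of 6 passed as higher and 4 as lower. Over all 642 differences between mixed and homotypic arrays at 10 bp, 62.3% passed as higher and 29.6% as lower. The differences from PU1_PU1 were between -0.38 (MYC_PU1, context 2) and 0.67 (MYC_PU1, context 1). Those from MYC_MYC were between -0.57 (MYC_PU1, context 2) and 0.54 (PU1_MYC, context 3). In context 2 both mixed arrays were less active than either homotypic array, and in context 3 both were more active than either. However, PU1_PU1 in context 2 took 11.3% and 8.36% of its mRNA reads in the 2 replicates from 1 barcode. Its median log2 ratio over barcodes was -2.08, against -2.28 for MYC_PU1 and -2.03 for PU1_MYC. By that median PU1_MYC in context 2 was not below PU1_PU1.

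At 5 bp most mixed arrays were below the MYC array and above the PU1 array. Of 12, 9 passed as lower and 1 as higher than the MYC array, and 8 passed as higher and 1 as lower than the PU1 array, where 56.4% of all 842 such differences passed as higher and 33.7% as lower. The one above its MYC array was PU1_MYC in context 2, at -0.76 against -1.37 for MYC_MYC (difference 0.61 ± 0.04, adjusted p = 9.29e-05 in limma). It was also above PU1_PU1, at -1.67, by 0.91 ± 0.04, and so exceeded both. The one below its PU1 array was MYC_PU1 in context 3, with a difference of -0.12 ± 0.04 (adjusted p = 0.047 in limma). Its difference from MYC_MYC was -0.66 (-0.68 and -0.64 in the 2 replicates). The furthest below its MYC array was PU1_MYC_PU1 in context 1, at -2.05 against -0.70 for MYC_MYC_MYC, a difference of -1.35 or 2.55-fold lower. In the same context PU1_MYC_PU1 and PU1_PU1_PU1 differed by -0.0038 ± 0.05, with an adjusted p of 0.945 in limma.

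To ask whether a mixed array stood where its 2 motifs alone would place it, its log2 activity was compared with the mean of its 2 homotypic arrays, weighted by the copies of each motif. With 10 bp spacers 4 of 6 mixed arrays were above that mean and 2 below, and all 6 passed, where 92.5% of 318 mixed arrays of any pair passed, 68.9% as higher and 23.6% as lower. The excess was 0.25 and 0.23 for MYC_PU1 in contexts 1 and 3, and 0.10 and 0.46 for PU1_MYC in the same contexts. In context 2 both were below it, at -0.47 (MYC_PU1) and -0.26 (PU1_MYC). The median over the 6 was 0.16, and over the 168 mixed 2-motif arrays of all pairs 0.23.

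With 5 bp spacers 4 of 12 mixed arrays passed as higher than this weighted mean and 6 as lower, where 60.5% of 418 mixed arrays of any pair passed as higher and 32.5% as lower. PU1_MYC in context 2 had the largest excess, 0.76 ± 0.04 (0.74 and 0.78 in the 2 replicates). The other 2-motif arrays were between -0.39 (MYC_PU1, context 3) and 0.24 (MYC_PU1, context 2), and PU1_MYC in context 3 did not pass, at 0.06 ± 0.04 (adjusted p = 0.166 in limma). Of the 3-motif arrays all MYC_PU1_MYC passed as lower, at -0.27, -0.54 and -0.12 in contexts 1 to 3. PU1_MYC_PU1 gave -0.45, 0.04 and 0.14, of which the value in context 2 did not pass (adjusted p = 0.362 in limma). The median was 0.11 for the 6 arrays of 2 motifs and -0.19 for the 6 arrays of 3, and over all mixed arrays of the same lengths 0.21 (168 arrays) and 0.11 (154 arrays). The excess differed between libraries for 5 of the 6 arrays of 2 motifs, where 82.7% of 318 such differences passed. For PU1_MYC in context 2 it was -0.26 at 10 bp and 0.76 at 5 bp, a difference of -1.02 ± 0.06 (adjusted p = 5.90e-05 in limma).

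The arrays of 2 motifs were also set against the single motifs they contain. At 10 bp all 6 mixed arrays passed as lower than the single PU1 motif of the same context, with differences of -1.62 to -0.79. A single PU1 motif had 0.11, -1.20 and -0.05 there in contexts 1 to 3. Against the single MYC motif at 10 bp (-0.60, -1.37 and -1.06), 4 passed as lower, and PU1_MYC in context 3 passed as higher, by 0.22. Over all 637 steps of any length at 10 bp 44.9% passed as higher and 45.4% as lower. The median of the 12 mixed steps to 2 motifs was -0.90 there, and over all 360 steps to 2 motifs 0.09. At 5 bp 4 of 6 passed as lower than the single PU1 motif (-0.59, -0.87 and -0.93) and none as higher, also at an unadjusted p under 0.05 in limma. Against the single MYC motif (-0.80, -1.12 and -1.24), MYC_PU1 passed as lower in all 3 contexts and PU1_MYC as higher in contexts 1 (0.13) and 2 (0.36), with 0.09 in context 3 (adjusted p = 0.0705 in limma). Over all 869 steps of any length at 5 bp 47.4% passed as higher and 39.8% as lower. The median of the 12 mixed steps to 2 motifs was -0.18 at 5 bp, and over all 360 steps to 2 motifs 0.36.

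Most 5 bp arrays were lower with 1 more motif. Each 3-motif array was set against the 2 arrays obtained by removing its first or its last motif, which gave 12 steps. Of these, 10 passed as lower and 1 as higher, where 39.8% and 47.4% of the 869 steps of all lengths did. The median was -0.67 over these 12 and -0.15 over all 332 steps to 3 motifs, whose quartiles were -0.58 and 0.36. The largest step was MYC_PU1_MYC minus PU1_MYC in context 2, -1.40 ± 0.03, or 2.64-fold lower. PU1_MYC_PU1 minus PU1_MYC in context 1 was close to it at -1.37 ± 0.03. The step that passed as higher was PU1_MYC_PU1 minus MYC_PU1 in context 3 (0.15 ± 0.03), and MYC_PU1_MYC minus MYC_PU1 in context 3 was 0.0050 ± 0.04. Between the 2 kinds of 3-motif array, MYC_PU1_MYC was higher than PU1_MYC_PU1 in context 1, by 0.63 ± 0.04, and lower in contexts 2 and 3, at -0.29 ± 0.05 and -0.15 ± 0.04. All 3 differences passed, as did 93.0% of the 71 such comparisons of all pairs, 57.7% as higher and 35.2% as lower.

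Set against the rd construct of the same context, the 10 bp arrays lay at or below it. Of 6, 5 passed as lower and 0 as higher, where 47.4% of 439 constructs passed as lower and 46.2% as higher. The differences were -0.69, -1.99 and -0.20 for MYC_PU1 and -0.83, -1.78 and 0.03 for PU1_MYC in contexts 1 to 3. The last did not pass, with an adjusted p of 0.698 in limma, and no array passed as higher at an unadjusted p under 0.05. In context 2 MYC_PU1 was 3.98-fold lower than rd and PU1_MYC 3.42-fold lower. Among the 5 bp arrays 4 of 12 passed as higher than rd and 5 as lower, where 64.0% of 539 constructs passed as higher and 30.4% as lower. PU1_MYC was above rd in every context, by 0.58, 0.36 and 0.40, that is by 1.49-fold, 1.28-fold and 1.32-fold. MYC_PU1 passed as higher than rd in context 1 (0.25) and as lower in context 2 (-0.17), and had -0.04 in context 3 (adjusted p = 0.402 in limma). No 3-motif array passed as higher than rd. MYC_PU1_MYC in context 2 was the furthest below it, at -1.05 or 2.06-fold lower.

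The contexts ranked in another order at 10 bp than at 5 bp. With 10 bp spacers, context 3 minus context 2 was 1.23 ± 0.03 for MYC_PU1 and 1.24 ± 0.05 for PU1_MYC, and context 2 minus context 1 was -0.94 and -0.57. All 6 context differences passed at 10 bp, where 84.7% of 437 passed. With 5 bp spacers, context 3 minus context 2 was -0.31 for MYC_PU1 and -0.39 for PU1_MYC, and context 1 was the highest for both. At 5 bp 11 of 12 context differences passed, 4 as higher and 7 as lower, where 76.8% of 531 passed, 33.0% as higher and 43.9% as lower. The 3-motif arrays had other orders: MYC_PU1_MYC was lowest in context 2 and PU1_MYC_PU1 was lowest in context 1. Tested between the libraries, context 3 minus context 2 was higher at 10 bp than at 5 bp by 1.54 ± 0.05 for MYC_PU1 and 1.63 ± 0.07 for PU1_MYC (adjusted p = 1.50e-05 and 1.88e-05 in limma), where 57.2% of 437 context differences passed as higher.

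Reads summed per construct were also compared between mRNA and plasmid DNA with edgeR's quasi-likelihood test over the designs present in both libraries. This test scales the libraries by TMM, so its ratios are relative to the bulk of the constructs. They differ from the activities by a constant for each library and fit. With 10 bp spacers all 6 mixed arrays passed as lower in mRNA, at -1.75 to -0.29, where 48.6% of 442 constructs passed as lower. With 5 bp spacers 5 of 6 arrays of 2 motifs passed as lower, at -1.05 to -0.22, where 49.5% of 442 passed as lower. The remaining one, PU1_MYC in context 1, had -0.13 ± 0.07 (adjusted p = 0.0766, edgeR). The 6 arrays of 3 motifs were read from a fit of the 5 bp library alone, and all 6 passed as lower, at -1.42 to -0.68, where 45.2% of 542 constructs passed as lower. In that fit PU1_MYC in contexts 1 and 2 had 0.07 and -0.02 and did not pass (adjusted p = 0.338 and 0.737, edgeR). So 4 of the 6 arrays of 2 motifs passed as lower there. The scales of the fits differ: MYC_PU1 in context 1 had -0.26 in that fit and -0.45 in the fit over both libraries. Scaled on the rd constructs instead, 3 of the 6 arrays of 2 motifs passed as higher at 5 bp and 1 as lower.

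The difference of these ratios between libraries, 10 bp minus 5 bp, depended on the flanking context. In contexts 1 and 2 the mixed arrays were lower at 10 bp, at -0.36 ± 0.10 and -1.01 ± 0.11 for MYC_PU1 and at -0.83 ± 0.09 and -1.31 ± 0.10 for PU1_MYC. In context 3 they were higher at 10 bp, by 0.53 ± 0.10 for MYC_PU1 and 0.31 ± 0.09 for PU1_MYC. All 6 passed (largest adjusted p 0.00565, edgeR), where 77.1% of 442 constructs passed, 36.0% as higher and 41.2% as lower. The values in context 3 depended on the scaling: with the libraries scaled on the rd constructs, they were -0.18 and -0.40. Of these, the value of PU1_MYC passed as lower (adjusted p = 0.00263, edgeR) and that of MYC_PU1 did not pass. Spacer length and plasmid pool cannot be told apart, since each spacer had its own library.

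In the integrated library the same 5 bp arrays sat in the landing pad, and few barcodes gave mRNA. Per replicate, 13.2% to 17.7% of the 423 barcodes of the mixed arrays had mRNA, a mean of 15.1% ± 2.33 (SD, n = 3), and over all constructs the mean was 19.6% ± 2.66. Over the 3 replicates together 134 of 423 barcodes (31.7%, 95% Wilson interval 27.4% to 36.3%) had mRNA at least once, a count that covers counting error only. By array the mean share was 12.1% ± 5.25 for MYC_PU1, 18.7% ± 4.00 for PU1_MYC, 13.0% ± 3.60 for MYC_PU1_MYC and 17.7% ± 2.34 for PU1_MYC_PU1. It was 15.8% ± 1.52 for MYC_MYC, 22.2% ± 6.74 for PU1_PU1 and 9.49% ± 3.08 for rd. A single motif had 11.1% ± 4.19 (MYC) and 40.3% ± 1.39 (PU1). The mixed arrays that begin with PU1 had the higher mean shares, but PU1_MYC_PU1 also holds more PU1 motifs than MYC_PU1_MYC. The replicates of MYC_PU1 (15.2%, 15.2% and 6.06%) and PU1_MYC (14.7%, 18.7% and 22.7%) overlapped.

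Integrated activities varied far more between replicates than episomal ones. They also rested on few barcodes: the top barcode of each of the 12 arrays gave 16.2% to 57.2% of its mRNA over the replicates. The most active arrays were PU1_MYC in context 1 (0.17, -1.24 and 0.45 in the 3 replicates), MYC_PU1_MYC in context 1 (-0.40, -0.75 and -0.15) and MYC_PU1 in context 3 (-0.46, -2.18 and -1.07). The least active were MYC_PU1 in context 2 (-3.57, -1.78 and -9.95), PU1_MYC in context 2 (-2.89, -0.66 and -9.77) and MYC_PU1_MYC in context 2 (-3.39, -2.12 and -5.33). Both 2-motif arrays of context 2 had 0 of 20 barcodes with mRNA in the third replicate, so their values there are set by the added 0.5 RPM. A count of 0 in 20 barcodes has an upper 95% Wilson bound of 16.1%. MYC_PU1 in context 1 had -1.67, -3.25 and -3.71, and PU1_MYC in context 3 had -1.40, -2.08 and -1.04. The 3 contexts of PU1_MYC_PU1 were close together, with means of -1.97, -1.62 and -1.75, and MYC_PU1_MYC in context 3 had a mean of -2.38. For comparison rd had -0.87, -0.86 and -1.27 in context 1, 0.53, 1.32 and 0.40 in context 2, and -3.59, -3.82 and -3.90 in context 3.

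With limma on log2(summed RPM + 0.5), mRNA of the 12 integrated arrays was compared with their genomic DNA, and 8 passed as lower and 0 as higher, where 55.9% of 513 constructs passed as lower and 13.5% as higher. All 12 differences were negative, so no array was higher at an unadjusted p under 0.05 either. Centred on the rd constructs, 2 of the 12 passed as lower. No order difference passed, and 1 of the 3 had an unadjusted p under 0.05 in limma. MYC_PU1 minus PU1_MYC was -2.67 ± 0.64 in context 1 (-1.84, -2.01 and -4.17, adjusted p = 0.0696), -0.66 ± 0.40 in context 2 and 0.27 ± 0.42 in context 3, where 15.5% of 84 order pairs passed. In context 1 the adjusted p in limma was 0.0469 with the mean of the genomic DNA replicates as the denominator. Without the barcode with the most mRNA in each construct, the difference in context 1 was -4.69 (-2.24, -1.27 and -10.56, adjusted p = 0.479 in limma) and that in context 2 was 1.31 (6.13, -2.13 and -0.07). Both settings were chosen after seeing the data. No context difference passed either, where 11.7% of 489 did, and 4 of the 12 had an unadjusted p under 0.05 in limma.

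Against the weighted mean of the homotypic arrays, 1 integrated array passed as higher and 2 as lower, where 12.5% of 375 mixed arrays of any pair passed as higher and 6.93% as lower. MYC_PU1_MYC in context 1 was higher by 2.01 ± 0.36 (adjusted p = 0.045 in limma), where MYC_MYC_MYC had -2.78, -2.81 and -3.40. MYC_PU1_MYC and PU1_MYC_PU1 in context 3 were lower, at -4.73 ± 0.35 and -2.17 ± 0.41. Their MYC_MYC_MYC array, at 4.11, 4.30 and 4.42, took 96.4% of its mRNA from 1 barcode of 127. Without the barcode with the most mRNA in each construct, an alternative chosen after seeing the data, the last 2 values were -2.31 ± 0.44 and -0.49 ± 0.52, the first was 1.45 ± 0.50, and none of the 12 passed. Against the MYC arrays 1 of the 12 integrated arrays passed as higher and 2 as lower, where 18.3% and 15.5% of all 775 differences from homotypic arrays did. None of the 3 passed without the barcode with the most mRNA. Against the PU1 arrays none of the 12 integrated differences passed, with 1 at an unadjusted p under 0.05. Against rd 4 passed as higher and 4 as lower, where 27.8% and 27.6% of 510 constructs did. Without the barcode with the most mRNA these counts were 2 and 0. All 4 that passed as higher than rd were in context 3, where rd was lowest. Of the 4 lower ones, 3 were in context 2, where rd was highest. In contexts 1 to 3 rd itself took 67.3%, 84.0% and 46.0% of its mRNA from 1 barcode.

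Among the 28 pairs of motifs, MYC with PU1 was below the middle pair for arrays of 2 motifs in all 3 libraries. Its median activity over 6 arrays was -1.44 at 10 bp, 21st of 28 from the highest, and -1.07 at 5 bp, 19th of 28. In the integrated library the median was -2.19, 19th of 28. The medians of all pairs ran from -2.91 to 1.44 at 10 bp, from -2.70 to 1.27 at 5 bp and from -4.76 to 0.76 when integrated. The median departure from the weighted mean ranked 16th at 10 bp over 6 arrays of 2 motifs (0.16). Over the 12 arrays of 2 or 3 motifs it ranked 15th at 5 bp (-0.04) and 21st when integrated (-0.89). These sets differ, and at 5 bp the median over the 6 arrays of 2 motifs alone was 0.11. The ranks of the departure took all mixed arrays of each pair, and some other pairs also held longer arrays. At 10 bp 168 of the 318 departures of all pairs came from 2-motif arrays, with a median of 0.23 against 0.53 over all 318. These ranks therefore compare arrays of unlike length.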

How the data were processed

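The members, the matched arrays and the lists were chosen with earlier results of these data known. For each barcode the authors deposited raw counts in the 2 episomal libraries and RPM (depth-scaled reads) in the integrated library, per the file headers. Which aligner or barcode caller was used is not given in the sources used here, and 9 further columns matched no sample and were not used. Barcodes with a construct name and at least 5 plasmid reads were kept, and counts were summed per construct (at least 5 barcodes, or 3 in the integrated table). Episomal totals were 3850658 to 4563359 reads per sample, and 16.6% to 18.5% of reads lay on barcodes without a construct name.

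Summed counts were tested with edgeR 4.0.16 (quasi-likelihood, TMM), and with DESeq2 1.42.0 as an alternative. Summed RPM plus a pseudocount of 0.5 and the matched differences of log2 activity were tested with limma 3.58.1 in R 4.3.3, over all constructs of a library, with Benjamini-Hochberg adjustment. The procedures were tested on simulated data first. Both mRNA samples of an episomal library share 1 plasmid DNA sample, and the integrated triplicates may be technical, so p-values cover only the spread between these samples. Scaling, plasmid read and barcode minimums, the expectation, the pseudocount, single replicates and the replicate block were varied. Leaving out the top mRNA barcode, the mean of the genomic DNA replicates and the test between spacers were added after seeing the data. Values in every replicate are given for the 3 most and 3 least active mixed arrays and for both orders of the 2-motif arrays, and other arrays by their means or ranges.

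Same-numbered genomic DNA and mRNA samples did not deviate together: the correlations over 513 constructs were -0.018, 0.046 and -0.027. The limma comparison of integrated mRNA with genomic DNA treated them as unpaired. The integrated activities and matched differences nevertheless divide each mRNA sample by the genomic DNA sample of the same number, and the mean of the genomic DNA replicates is the alternative without that pairing.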

Additional observations from a re-analysis of the deposited data

Results flagged for a closer look

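The mRNA to plasmid DNA ratio of all 6 arrays of 2 motifs differed between spacers by the edgeR test of the difference itself. The 10 bp minus 5 bp values were -0.36, -1.01 and 0.53 for MYC_PU1 and -0.83, -1.31 and 0.31 for PU1_MYC in contexts 1 to 3. The sign in context 3 depended on the scaling. Scaled on the rd constructs, MYC_PU1 had -0.18 there and did not pass, and PU1_MYC had -0.40 and passed as lower (adjusted p = 0.00263, edgeR). Of all 442 constructs 77.1% passed this test.

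The order difference MYC_PU1 minus PU1_MYC also differed between spacers in limma, by 0.48, 0.30 and 0.22 in contexts 1 to 3 (10 bp minus 5 bp). Of all 84 order pairs 85.7% passed this test. Each spacer had its own plasmid library, so spacer and library cannot be told apart.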

How the results depend on the processing

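Under scaling on the rd constructs, 3 of the 6 arrays of 2 motifs at 5 bp were called higher in mRNA and 1 was called lower. The values of MYC_PU1 were 0.29 and 0.010 in contexts 1 and 2, and those of PU1_MYC were 0.62, 0.53 and 0.15 in contexts 1 to 3. Between spacers 0 arrays were then higher at 10 bp, with -0.18 for MYC_PU1 and -0.40 for PU1_MYC in context 3, and DESeq2 called 1 higher. In the integrated library 2 arrays were lower when centred on rd, and MYC_PU1 in context 3 had 0.11.

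With the stronger homotypic array as the expectation, 1 array was higher at 5 bp, as with the median over barcodes. PU1_MYC then had -0.53 and -0.21 in contexts 1 and 3, and PU1_MYC_PU1 had -0.54 and -0.085 in contexts 2 and 3. With the linear mean PU1_MYC in context 1 had -0.0020. At 10 bp the stronger array gave 2 higher and 4 lower, with -0.17 for MYC_PU1 and -0.32 for PU1_MYC in context 1, and the barcode median gave 1 lower. With a plasmid minimum of 20 reads, 2 arrays were higher than MYC and 0 lower than PU1 at 5 bp, and 2 order differences were lower at 10 bp.

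Integrated departures called higher were 0 with the stronger array, with a pseudocount of 0.1, without the top barcode and without any single mRNA replicate. Departures called lower were 1 with that pseudocount, 0 without the top barcode and 0 without any single replicate. Differences from MYC were 0 higher and 0 lower without the top barcode or any single replicate. Against rd, 2 were higher and 0 lower without the top barcode, where PU1_MYC_PU1 in context 2 had 0.13. Without single replicates the counts against rd ran from 0 to 2 higher and were 1 lower without replicate 1 or 2. The order difference was lower in 1 context with a pseudocount of 2 and with the mean of the genomic DNA replicates, which changed no other call among the matched differences, and 1 context difference was lower with at least 20 barcodes.

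With the replicate number as a block, 7 integrated arrays were lower (8 without the block), and between spacers 2 were higher and 4 lower, as without it. The replicate differences of the 2 spacers correlated at 0.047 over 442 constructs, so the samples shared only a number, and the fits of mRNA against DNA did not pair them. Of the values of single arrays under all alternatives, 1137 were classed as unchanged, 83 no longer passed, 19 newly passed and 16 reversed. The unchanged class also holds values that changed sign but passed in neither setting. Values without a p-value, such as those from a single replicate, could be compared by sign at most. Few barcodes limit the integrated library.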

Other observations

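Activities of the 12 mixed arrays in the 5 bp episomal and the integrated library had a Pearson correlation of 0.0029 and a Spearman correlation of 0.077, where all 513 constructs had 0.40 and 0.43. Over the 6 arrays of 2 motifs the correlation of 5 bp with 10 bp activity was -0.29, and over all 442 constructs 0.73. For 10 bp with integrated activity it was 0.79 over the 6 arrays (Spearman 0.60), and 0.37 over 413 constructs (Spearman 0.41). Both arrays of context 2 were lowest in both libraries. Their integrated means include third-replicate values of -9.95 and -9.77 that are set by the added 0.5 RPM. These are descriptions across constructs that share libraries, and constructs are not replicates.

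In the integrated library, 260 of the 423 barcodes of the mixed arrays were also listed in the 5 bp episomal table, of which 219 carried the same construct name, 40 no name and 1 another name. The log2 ratio of genomic DNA share to plasmid DNA share of the 12 arrays ran from -0.96 to 0.45 with a median of -0.19, and the median over 513 constructs was 0.0056.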
